A study of Homo sapiens with 4 samples.

Results

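ES27L is an expansion segment of the human 28S rRNA, taken here as nt 2889 to 3590 of 28S, which are positions 10813 to 11514 of the 45S precursor (RNA45SN5). The members were chosen by position alone and no depth was used. They are 702 of the 5070 positions of 28S and of the 15984 rRNA positions listed in all. The limits are approximate, and the segment was neither aligned to a structure nor tested for its ends. The libraries come from HEK293T cells, a line from human embryonic kidney with the SV40 large T antigen, which stably overexpressed Flag-tagged SIRT7 and were used at passages 10 to 15. All 4 libraries share this construct. Cytosol and nucleus were separated, Flag-SIRT7 was bound to anti-Flag gel in each, and the RNA recovered from the gel was sequenced in 2 libraries per fraction. No input RNA, mock capture or cells without the construct were analysed here, so depth is recovered RNA and not enrichment, and the labels do not say that replicates came from separate cultures, so p-values measure a spread that may be technical.

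Expansion segments are stretches that eukaryotic rRNA carries beyond the core shared with bacteria. ES27L is a long and mobile arm on the surface of the large subunit near the exit of the nascent peptide tunnel. It is known as a docking place for factors that act on new polypeptides, such as methionine aminopeptidases and, in human ribosomes, the protein EBP1. SIRT7 is a sirtuin, an NAD-dependent deacylase of the nucleolus, where 28S is made from the 45S precursor. The precursor is encoded by many rDNA copies, and the deposited depths do not separate them. The comparison between the fractions asked which parts of ES27L were recovered with SIRT7 in each.

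The sequence of ES27L stands out by its composition. G and C made up 87.5% of the 702 bases, against 66.5% in the rest of 28S, and A made up 4.13% against 17.6%. ES27L held 128 of the 622 CpG dinucleotides of 28S. Of its windows, 3 are shown in the letters of the reference (T for U, 5′ to 3′), because one was the deepest, another differed most between the fractions and the last was the shallowest. Capitals mark runs of at least 5 C or 5 G.
28S nt 2889-2988 (precursor 10813-10912), the deepest: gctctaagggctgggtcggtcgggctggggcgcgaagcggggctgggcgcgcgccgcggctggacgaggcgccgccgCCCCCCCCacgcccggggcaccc
28S nt 3089-3188 (precursor 11013-11112), the largest difference: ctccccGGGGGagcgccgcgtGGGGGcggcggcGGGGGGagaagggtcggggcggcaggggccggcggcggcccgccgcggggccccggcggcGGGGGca
28S nt 3389-3488 (precursor 11313-11412), the shallowest: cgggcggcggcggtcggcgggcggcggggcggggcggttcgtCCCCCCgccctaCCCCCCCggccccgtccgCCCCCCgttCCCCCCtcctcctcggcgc

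The 3 windows differ in their runs of C and G. The deepest window had 1 run of C and no run of G. The window that differed most had 4 runs of G and no run of C. The shallowest had 4 runs of C and no run of G. The window directly before the one that differed most, nt 2989 to 3088, was 68% C and 15% G, while the window itself was 59% G and 32% C. In the minimum free energy fold of the 702 nt by RNAfold, a prediction from sequence alone, 78.6% of the bases were paired. All 75 paired bases of nt 3089 to 3188 had their partner in nt 2989 to 3088, so the C-rich and the G-rich window formed the arms of 1 predicted hairpin. The motif GGGGG or its reverse complement CCCCC occurred in 7 of 7 windows of ES27L, 20 of 44 windows (45.5%) of the rest of 28S and 50% of all 162 windows. The motif CGGCGGCGG or its reverse complement CCGCCGCCG occurred in 4 of 7 windows of ES27L, 4 of 44 (9.09%) of the rest of 28S and 9.26% of all windows.

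ES27L was thinly covered beside the rest of 28S in all 4 libraries. Depth is given below as relative depth, the depth divided by the average over every listed position in that library. This average was 207648 and 197618 reads for the cytosolic replicates, and 211717 and 189023 for the nuclear replicates. Relative depth was 0.193 and 0.171 over ES27L and 2.67 and 2.59 over the rest of 28S in the cytosolic libraries. In the nuclear libraries it was 0.158 and 0.153 over ES27L and 2.31 and 2.30 over the rest. The share of ES27L in the 28S depth was thus 1.10% ± 0.0707 for cytosolic and 1.07% ± 0.0168 for nuclear libraries (SD, n = 2). These shares overlapped (two-sided exact permutation p = 1, where 2 libraries against 2 allow no less than 0.333). As a segment, ES27L had a log2 difference, nucleus minus cytosol, of -0.23 (SE 0.10, 95% interval -0.53 to 0.08, adjusted p = 0.122 in limma), and it was not among the 50% of 12 segments that passed. Both flanks of 28S differed by a like amount, -0.17 before ES27L and -0.23 after it.

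That mean describes the entrance of ES27L more than its length. The first window, nt 2889 to 2988, took 89.4% and 89.0% of the depth of ES27L in the cytosol, against 91.0% and 93.2% in the nucleus. By medians over positions, ES27L stood at 2010 and 2100.5 reads in the cytosol against 826.5 and 473 in the nucleus, with no overlap. The log2 difference of the medians was -1.70 (adjusted p = 0.0155 in limma), and that of the mean without the first window (chosen once its large share had been seen) was -0.69 (adjusted p = 0.0496 in limma). Against the rest of 28S, the log2 difference was -0.04 by means, -0.50 without the first window and -1.54 by medians.

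**Figure D1:**
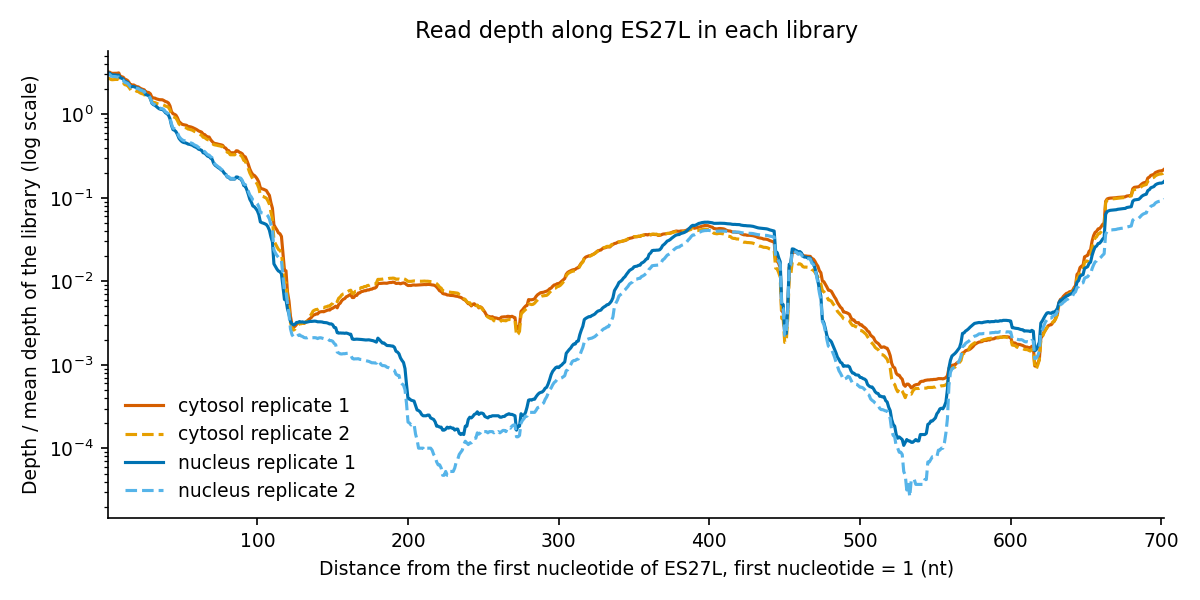
Depth at each position of ES27L over the mean depth of the library (log scale), against the distance from the first nucleotide (28S nt 2889), 1 line per library. All 4 lines start near 3 and fall; within the first trough the nuclear lines lie far below the cytosolic ones, they meet near the middle of ES27L, and a second trough follows.

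Along ES27L, depth had an entrance slope, a first trough, a hump, a second trough and an exit slope, in this order in every library. The deepest stretch of 10 nt was nt 2889 to 2898, at 3.07 and 2.59 times the average depth in the cytosol against 2.94 and 2.82 in the nucleus, where the fractions overlapped. Depth under 0.01 of the library mean was found at 355 and 330 of the 702 positions in the cytosol, and the nuclear replicates had 402 and 414. In the rest of 28S it was found at 118 and 119 of 4368 positions in the cytosol against 133 and 153 in the nucleus. The low positions of ES27L were therefore 50.6% and 47.0% of it in the cytosolic replicates, and 57.3% and 59.0% of it in the nuclear replicates. In the rest of 28S the share was at most 3.50%.

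The drop into the first trough was the steepest fall of ES27L, at nearly the same place, in both cytosolic libraries and 1 nuclear library. Over nt 2998 to 3017 the first cytosolic library fell from 7598.7 reads to 798.1, and over nt 2996 to 3015 the second fell from 7454.9 to 931.4 and the second nuclear library from 5267.8 to 723.9. These are means of the first and the last 10 nt. In the first nuclear library the steepest fall over 20 nt lay at nt 3353 to 3372, ahead of the second trough. After the drop the fractions parted. Cytosolic depth rose from its lowest 10 nt in this trough, nt 3011 to 3020 and nt 3010 to 3019, and later dipped once more, to a relative depth of 0.00265 and 0.00224 at nt 3160, below the 0.00283 and 0.00261 at nt 3012. Nuclear depth went on falling to its lowest 10 nt at nt 3116 to 3125 and nt 3110 to 3119. Mean depth over these lowest stretches was 34.5 and 9.8 reads in the nuclear and 643.2 and 584.3 reads in the cytosolic libraries.

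Among the 7 windows of ES27L, the fractions differed most in this trough, at nt 3089 to 3188, the G-rich window printed above. Its mean depth was 1313 and 1258 reads for the cytosolic replicates and 64.9 and 35.8 reads for the nuclear replicates, or 0.00632 and 0.00636 of the library mean against 0.000307 and 0.000189. Both nuclear libraries lay far below both cytosolic ones, and the ratio of the means was 25.6. The log2 difference on the scale of relative depth plus 0.0001 was -4.23 (SE 0.29, 95% interval -4.80 to -3.67). The median of the 137 windows tested over all rRNA sequences was 0.13. This was the lowest of them, but with pseudocounts of 0.001 (-2.56) and 0.01 (-0.67) it ranked behind nt 3991 to 4090 in the rest of 28S, which was 8.25-fold lower in the nucleus at far greater depth (-3.05). The pseudocount of 0.0001 stands for 18.9 to 21.2 reads of depth, so it lowers the size of this difference.

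The adjusted p of that window was 5.9e-36 in limma with a mean-variance trend, and 3.8e-05 in limma without one. The fit with the trend replaced each window's own spread by the trend, since its prior degrees of freedom were infinite, and neighbouring windows share reads, so the smaller value overstates what 4 libraries can show. Over 15 alternative settings the adjusted p from limma lay between 7.7e-47 and 0.00120 and the log2 difference between -4.66 and -0.67. The value of -0.67 came with a pseudocount of 0.01, which stands for 1890 to 2117 reads and exceeds the depth of the window in every library. A cubic in G+C content was fitted over the windows of 18S, 5.8S and 28S, with ES27L included. With it removed, the log2 difference of this window was -3.40 (adjusted p = 2.2e-35 in limma). Relative to the rest of 28S in the same library, the log2 ratio of the window was -8.72 and -8.67 in the cytosol against -12.88 and -13.57 in the nucleus (exact permutation p = 0.333, the smallest possible).

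**Figure D2:**
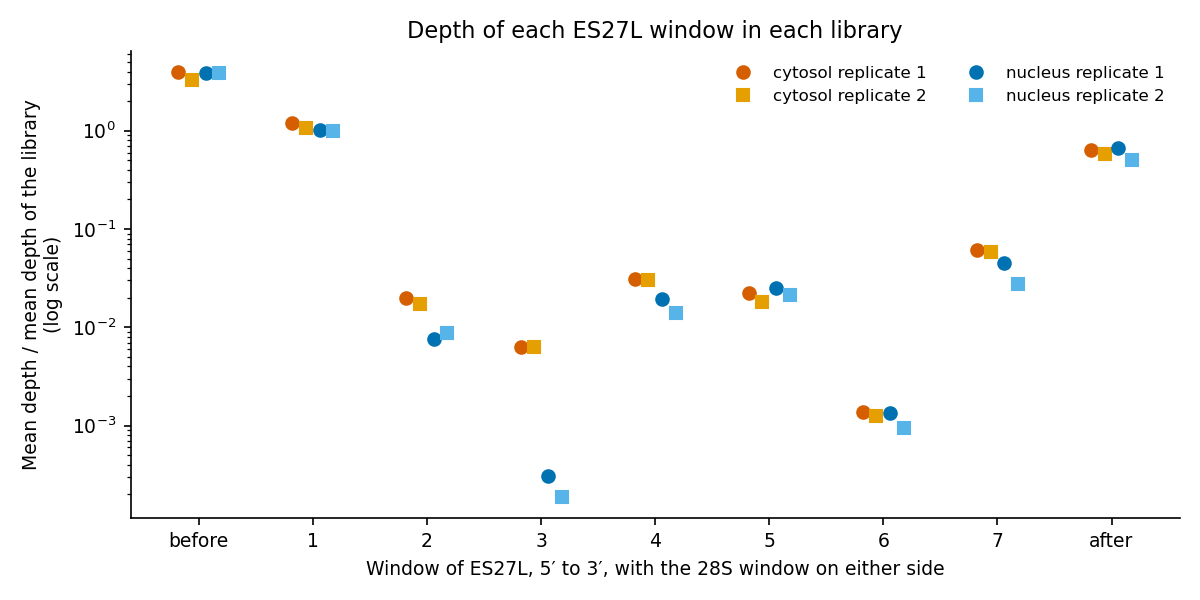
Mean depth of each window over the mean depth of the library (log scale), for the 7 windows of ES27L from 5′ to 3′ (window 1 is nt 2889 to 2988, window 7 is nt 3489 to 3590) and the 28S window on either side, 1 point per library. In window 3, nt 3089 to 3188, the cytosolic points lie near 0.0063 and the nuclear ones at 0.000307 and 0.000189.

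Of the 7 windows of ES27L, 4 were lower in the nucleus and 0 higher at an adjusted p under 0.05 in limma, and the same 4 and 0 at an unadjusted p under 0.05. Over all 137 windows 22.6% were lower and 41.6% higher, and in the rest of 28S 19 of 44 were lower and 5 higher. All tested windows of mitochondrial 12S and 16S rRNA were among the higher ones, and as segments these had log2 differences of 5.89 and 7.09. The median log2 difference was -0.77 over the 7 windows and -0.19 over the 44. The split of all windows moved with the scaling, from 57 higher and 31 lower to 44 and 45 with the median of ratios and to 65 and 15 with scaling to 28S outside ES27L. The median log2 difference of all windows moved with it, from 0.13 to -0.05 and to 0.29. With the scaling to 28S 2 windows of ES27L were lower, nt 2989 to 3088 and nt 3089 to 3188, and without a variance trend 3 were, with 0 higher in either case.

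At nt 2989 to 3088, the C-rich window before the G-rich one, relative depth was 0.0198 and 0.0171 in the cytosol against 0.00761 and 0.00884 in the nucleus. The nuclear libraries were lower without overlap, by 2.24 times, with -1.16 on the log2 scale (SE 0.37, limma's adjusted p = 0.00368). This call held under all 15 alternatives, with an adjusted p of at most 0.0472. Depth within this window was uneven: nt 2989 to 3038 was 1.90-fold and nt 3039 to 3088 was 5.76-fold lower in the nucleus.

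At nt 3189 to 3288, on the rise out of the first trough, relative depth was 0.0308 and 0.0302 in the cytosol against 0.0194 and 0.0139 in the nucleus, a 1.84-fold difference without overlap. The log2 difference was -0.89 (SE 0.36, adjusted p = 0.0239 in limma). At the 3′ end of ES27L, nt 3489 to 3590, relative depth was 0.0619 and 0.0579 against 0.0448 and 0.0275, a 1.66-fold difference without overlap and -0.77 on the log2 scale (SE 0.33, limma's adjusted p = 0.0362). These calls were less firm than the first pair. That at nt 3189 to 3288 ended in 7 of 15 alternatives. That at nt 3489 to 3590 held in only 4 and ended in 10. With the cubic in G+C removed it changed sign, to 0.14, and did not pass either. Leaving out cytosolic replicate 1, cytosolic replicate 2 or nuclear replicate 2 each ended both and left 2 lower windows in ES27L.

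The other windows did not pass. The entrance, nt 2889 to 2988, stood at 1.21 and 1.07 in the cytosol against 1.008 and 1.001 in the nucleus, lower without overlap (log2 difference -0.18, 95% interval -0.44 to 0.08). It passed as lower with the median of ratios (-0.41, limma's adjusted p = 0.0125) and with window medians (-0.61, limma's adjusted p = 0.00132), but as higher with the cubic in G+C removed (0.27, limma's adjusted p = 0.0465). The window of the hump, nt 3289 to 3388, stood at 0.0224 and 0.0183 in the cytosol against 0.0253 and 0.0213 in the nucleus and overlapped (0.19, 95% interval -0.52 to 0.91). Its mean covers unlike stretches. Nuclear depth was 1.303 times the cytosolic depth over nt 3304 to 3337 but 4.44-fold lower over nt 3369 to 3388, on the way into the second trough. The shallowest window, nt 3389 to 3488, stood at 0.00139 and 0.00126 in the cytosol against 0.00133 and 0.000942 in the nucleus and overlapped too (-0.22, 95% interval -0.77 to 0.33). Neither did the 28S windows on either side pass: nt 2801 to 2888 had a log2 difference of 0.09 and nt 3591 to 3690 had -0.08, with limma's adjusted p at 0.298 and 0.715. The first of them passed as higher when scaled to 28S outside ES27L (0.28, limma's adjusted p = 3.8e-04) and without cytosolic replicate 1 (0.22, limma's adjusted p = 0.0118).

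**Figure D3:**
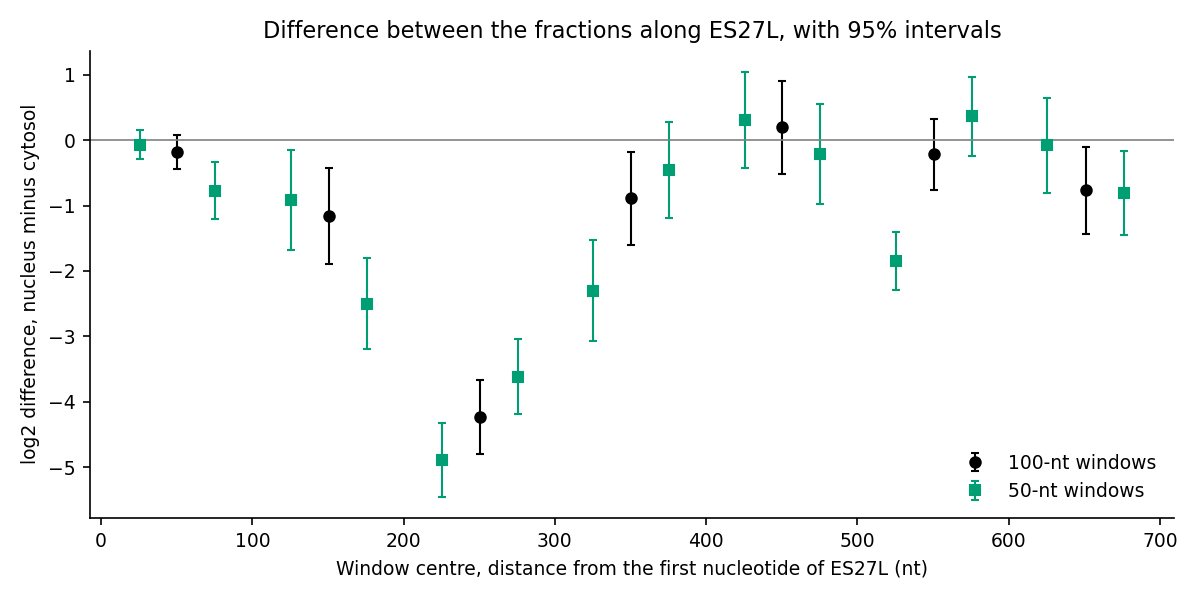
log2 difference of relative depth plus 0.0001, nucleus minus cytosol, for the 100-nt windows (circles) and 50-nt windows (squares) of ES27L, with 95% intervals of the limma fit, against the distance of the window centre from 28S nt 2889. The values fall to -4.88 in the first trough and return to about 0 in the hump. In the second trough they fall again, to -1.85 in the 50-nt window at nt 3389 to 3438.

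Windows of 50 nt placed the differences more closely. They were fitted only with the trend, so their adjusted p-values also overstate what 4 libraries can show. Of 14 such windows in ES27L, 8 were lower in the nucleus and 0 higher at an adjusted p under 0.05 in limma (also 8 and 0 at an unadjusted p under 0.05), where 25.7% of all 265 windows were lower and 44.9% higher. A run of 6 adjacent windows, nt 2939 to 3238, was lower throughout. The difference was greatest at nt 3089 to 3138, with a mean depth of 1507 and 1547 reads (cytosol) and 48.3 and 19.7 reads (nucleus), a ratio of 45.4 and a log2 difference of -4.88 (SE 0.29). In steps of 20 nt the ratio peaked at 56.3 over nt 3109 to 3128, with relative depths of 0.00663 and 0.00712 against 0.000172 and 7.3e-05. On either side it shrank, to 9.06 at nt 3069 to 3088 and to 14.2 at nt 3169 to 3188.

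The second trough was divided in its middle. Over nt 3389 to 3438 mean depth was 254 and 195 reads in the cytosol against 61.2 and 35.1 in the nucleus, a 4.65-fold difference (log2 difference -1.85, SE 0.22, adjusted p = 5.3e-15 in limma with a trend). Over nt 3439 to 3488 it was 322 and 304 reads in the cytosol against 503 and 321 in the nucleus, with a relative depth 1.32 times higher in the nucleus that did not pass (adjusted p = 0.298 in limma). The log2 ratio of the first stretch over the second was -0.34 and -0.64 in the cytosol against -3.04 and -3.19 in the nucleus, a difference of -2.63 with no overlap (exact permutation p = 0.333). The 100-nt window spans both stretches, and its median gave -1.37 (adjusted p = 9.2e-07 in limma) where its mean gave -0.22.

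The change of order in the second trough was sharp in the nuclear libraries. Depth rose from 65.1 to 313.5 reads in the first nuclear library and from 21.3 to 194 in the second between nt 3437 to 3446 and nt 3447 to 3456, the steepest rise over 20 nt in ES27L in both. In the cytosolic libraries the steepest rise was elsewhere, on the exit slope, at nt 3534 to 3553 and nt 3536 to 3555. The shallowest 10 nt of ES27L were in the second trough in every library, starting at nt 3417 in the first library of each fraction, at nt 3413 in the second cytosolic library and at nt 3419 in the second nuclear one. Depth there was 117.8 and 92 reads in the cytosol against 25.6 and 7 in the nucleus. No position of ES27L was at 0, and the lowest depth was 110 and 80 reads in the cytosol against 23 and 5 in the nucleus.

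The means of the 100-nt windows in the troughs stood in opposite order in the fractions. In the cytosol nt 3089 to 3188 was deeper than nt 3389 to 3488, by 2.19 and 2.34 on the log2 scale. In the nucleus it was shallower, with log2 ratios of -2.12 and -2.31. The difference of -4.48 exceeded the SDs of 0.103 and 0.138 within the fractions (n = 2, exact permutation p = 0.333). This ratio lies within ES27L and does not depend on the scaling between libraries. The lowest points kept their order, since the lowest 10 nt of the second trough were shallower than those of the first in every library. The nuclear mean of nt 3389 to 3488 includes the deeper stretch from nt 3439, while nt 3389 to 3438 stood at 61.2 and 35.1 reads, close to the 64.9 and 35.8 of nt 3089 to 3188.

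By position, both nuclear libraries lay below both cytosolic ones at 499 of 702 positions of ES27L (71.1%) and above both at 107 (15.2%). Over all listed positions these shares were 32.2% and 44%, and over the rest of 28S 58.9% and 17.9%. Neighbouring positions share reads, so these are shares of length and not independent counts. The longest run of lower nuclear depth was nt 3021 to 3272, 252 nt long. Runs of higher nuclear depth were nt 3304 to 3337 on the hump, at 1.303 times the cytosolic depth, nt 3340 to 3346, at 1.19 times, and nt 3454 to 3519 in the second trough, at 1.37 times.

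A narrow notch cut the hump in all 4 libraries at the longest run of a single base in ES27L, 11 C at nt 3332 to 3342. Depth at the base before the run was 6127 and 4636 reads in the cytosol against 8472 and 6423 in the nucleus. Within the run it dropped to 502 and 367 in the cytosol against 500 and 427 in the nucleus, and at the base after it was back at 4686 and 3370, and 5178 and 4355. The drop was 12.2 and 12.6-fold in the cytosol and 16.9 and 15.0-fold in the nucleus. The lowest point was at nt 3338 in 3 libraries and nt 3339 in the first nuclear one. How reads with a shorter or longer C run were aligned is not given in the sources used here, and its part in the notch was not tested.

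**Figure D4:**
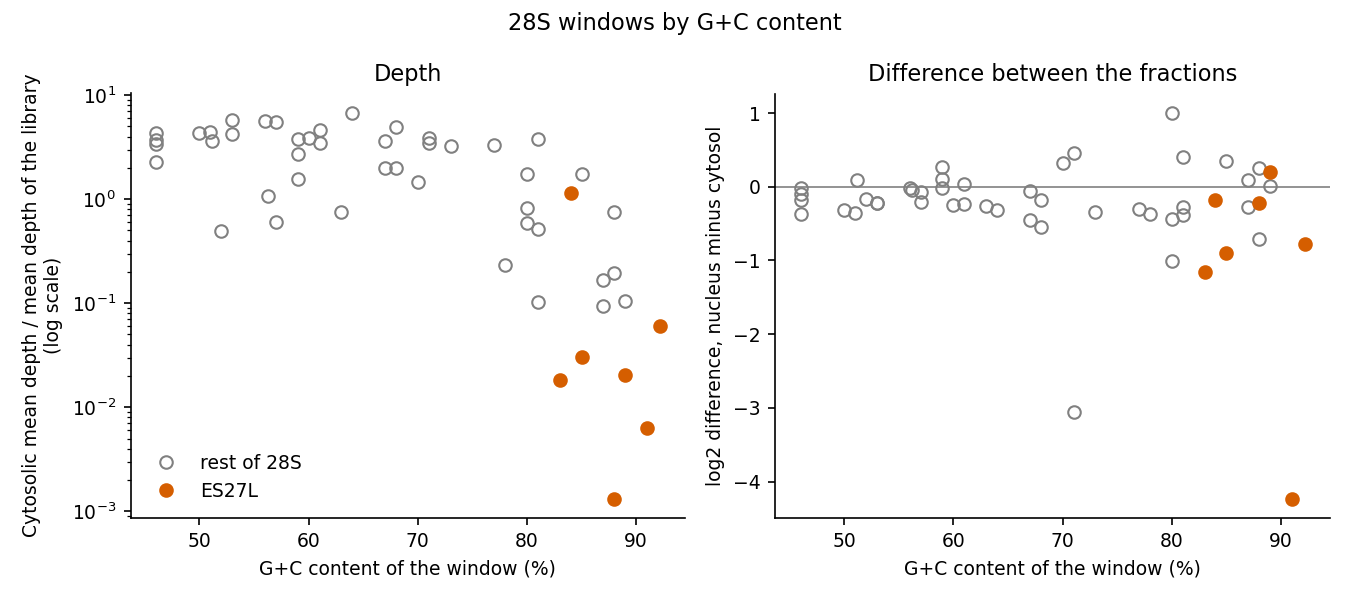
G+C content of each 100-nt window of 28S against its cytosolic mean depth over the library mean (left, log scale) and against its log2 difference, nucleus minus cytosol (right); filled points are the 7 windows of ES27L, open points the 44 windows of the rest of 28S. Apart from its first window, ES27L lies below every window of the rest of 28S in depth, and on the right its lowest point is -4.23 at 91% G+C.

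G+C content moved with depth along 28S. All 7 windows of ES27L had 83% to 92.2% G+C. In the rest of 28S 12 of 44 windows had at least 80%, and their cytosolic relative depth had a median of 0.554 and a range of 0.0932 to 3.82, against a median of 3.53 in the 32 windows under 80%. The median of the 7 windows of ES27L was 0.0204, though its first window, at 84% G+C, stood at 1.14. These sets were not matched in G+C content, with a median of 88% in ES27L and 83% in the 12 windows. Among the 12, nt 601 to 700 (87% G+C), nt 801 to 900 (89%) and nt 1101 to 1200 (88%) stood at 0.0932, 0.105 and 0.193. By contrast, nt 1001 to 1100 (85%) stood at 1.75. Of those 12 windows, 4 were lower and 2 higher in the nucleus, with log2 differences from -1.01 to 1.004 and a median of -0.13. In the spacers of the precursor 18 windows with at least 80% G+C were tested, of which 3 were lower and 7 higher, with differences from -0.63 to 2.12. The part of G+C content in the depth of ES27L was not tested. With the cubic in G+C removed, nt 2989 to 3088 and nt 3089 to 3188 were still lower, at -0.75 and -3.40, and 3 windows of ES27L passed as higher: 0.27 for nt 2889 to 2988, 0.90 for nt 3289 to 3388 and 0.43 for nt 3389 to 3488. The cubic was fitted in each library with the windows of ES27L included. Their G+C content reached 92.2%, against at most 89% in the rest of 28S. The curve at high G+C content thus depends on ES27L itself, so these values are not an independent correction for G+C.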

How the data were processed

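RNA captured with Flag-SIRT7 was sequenced in 2 cytosolic and 2 nuclear libraries. The deposited signal is coverage: how many reads lay over each base of an rRNA sequence, unscaled, per the file headers. The submitters' processing notes name cutadapt 1.5, Bowtie2 2.2.6 and SAMtools. Settings, read filters and strand handling are not given in the sources. The precursor was named RNA45SN5 by its accession without version in a RefSeq gene table. Positions are those of that sequence.

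Each library was divided by its mean depth. The 12 segments (ES27L, the rest of 28S on either side, and the other rRNAs and spacers) were cut into 100-nt windows, and a final piece shorter than 50 nt was merged with its neighbour. A window was tested if 2 or more libraries had a mean depth of 10 or more, which left 137. The test was limma 3.58.1 in R 4.3.3 (two-sided, lmFit, then eBayes using the mean-variance trend). It took log2(relative depth + 0.0001) and gave nucleus minus cytosol, adjusted by Benjamini-Hochberg over all windows with a threshold of 0.05. The earlier pseudocount of 0.01 exceeds the depth of much of ES27L and was kept as an alternative. Segments were tested without a pseudocount or trend, and ratios with a two-sided exact permutation test in scipy 1.17.1. Folding used RNAfold 2.7.2 at its default settings.

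On simulated data for the nucleus against cytosol over 137 windows, with 20 draws, this test called 62.5% of windows given a log2 change of 0.5, 96% at 1, 100% at 2 and 0.841% of unchanged windows. The simulated noise was normal, with a spread set by depth alone, as the fit with the trend assumes. These shares therefore do not show how the test fares where the spread of real windows departs from the trend. They are pooled over windows of all depths. The noise was also independent between windows, unlike that of real neighbours, which share reads. Over the draws 2140 windows were unchanged, against 200 at each size, and the changes had random sign. In the data 88 of 137 windows passed, and mitochondrial 12S and 16S as segments had log2 differences of 5.89 and 7.09. The simulated shares need not hold for such a mix.

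All windows of ES27L and the window on either side are named. By position, the deepest and shallowest 10 nt and the steepest changes over 20 nt are named, and other stretches were picked with their values in view. The members, windows and alternatives were chosen with earlier results of these data known. A read adds to the depth of each base under it and no molecular identifiers are stated, so depths are not counts of molecules.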

Additional observations from a re-analysis of the deposited data

How the results depend on the processing

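The falls at 28S nt 2989 to 3088 and nt 3089 to 3188 kept their direction and call in all 15 alternatives. The number of ES27L windows lower in the nucleus was 4, and 8 of 14 with 50-nt windows, 2 with the cubic in G+C removed, 2 with no depth filter, 2 scaled to 28S outside ES27L, 2 with the replicate block, and 2 to 4 when a library was left out. With 2 libraries a fraction, replicate 1 minus replicate 2 did not correlate between the fractions (r = 0.01 over 137 windows). This value pools all rRNA sequences, so it cannot show whether same-numbered libraries deviated together within ES27L. With the replicate block nt 3189 to 3288 and nt 3489 to 3590 no longer passed, and no other call in ES27L changed. The number higher was 0, but 3 with the cubic in G+C removed and 0 when any library was left out.

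Over all windows 88 changed, 57 higher and 31 lower. With 50-nt windows 187 changed (119 and 68), and with the cubic, over 72 windows, 42 did (24 and 18). Windows lower were 15 without a variance trend, 20 with a pseudocount of 0.01, 15 scaled to 28S outside ES27L and 16 to 26 when a library was left out.

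ES27L as a segment (-0.23) passed with the median of ratios (-0.46), with medians over positions (-1.70) and without its first window (-0.69), the last a choice made after seeing the data. Against the rest of 28S the difference of -0.04 became -1.54 with medians and -0.50 without the first window, and lay between -0.10 and 0.03 when a library was left out.

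Of windows that did not pass, nt 2889 to 2988 turned to 0.27 with the cubic, where it passed as higher, and 0.0088 scaled to 28S, and passed as lower with the median of ratios (-0.41) and window medians (-0.61). The window at nt 3389 to 3488 turned to 0.43 with the cubic and ranged from -0.449 to 0.0106 when a library was left out, and nt 3289 to 3388 turned to -0.032 with the median of ratios. The flank at nt 2801 to 2888 turned to -0.14 with the median of ratios and ranged from -0.050 to 0.22 when a library was left out, and passed as higher scaled to 28S (0.28) and without cytosolic replicate 1. That at nt 3591 to 3690 turned to 0.11 scaled to 28S and ranged from -0.28 to 0.12. The called window at nt 3489 to 3590 turned to 0.14 with the cubic. The cause was not tested. Nuclear depth under 100 reads in both troughs limits the precision of their ratios.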
